A study of Mus musculus with 18 samples.

Results

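The step described here is the passage from 10 h to 24 h of dexamethasone in cultured mouse macrophages. It was followed on the 3 arrays labelled as 24 h and the 3 labelled as 10 h of treatment, which are 6 of the 18 arrays of a time series in which every one of the 6 groups holds 3 arrays. The arrays were taken by their labelled times. The macrophages had been grown for 1 week from the marrow of 3 male C57BL/6 mice aged 10 weeks, in 10% fetal calf serum with recombinant human CSF1 (10000 U/ml), the growth factor that macrophages need to arise and survive, and were replated in the same serum and CSF1. The 24 h cells and the 10 h cells had both received 100 nM dexamethasone, a synthetic glucocorticoid, and differed by the labels only in its duration. The untreated cells of the series were taken at baseline. Because 10 h and 24 h have no untreated arrays of their own, time with the drug and time in culture cannot be told apart. The design text calls the arrays biological replicates, but the labels do not tie a replicate number to a mouse, so p-values measure the spread between these arrays. Arrays of the same number deviated weakly together, and the main test leaves the numbers out. A fit that includes them called 547 genes in place of 285, so genes said not to pass are so by the main test.

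Glucocorticoids bind the glucocorticoid receptor, a transcription factor encoded by Nr3c1, which then enters the nucleus, binds DNA and raises some genes and lowers others. In macrophages they restrain inflammatory cytokine genes and raise receptors and enzymes used to take up debris, and some of the genes first raised, such as Dusp1 and Tsc22d3, encode proteins that themselves restrain signalling. They also act on the circadian clock, a feedback loop in which CLOCK and BMAL1 drive the Per, Cry and Nr1d genes, whose products turn the loop down again, and a pulse of dexamethasone is a common laboratory means of setting the clocks of cultured cells to the same phase.

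Each value is a log2 intensity from a microarray, 1 sample per array, and a difference of 1 on this scale is a doubling. Arrays correlated over the tested genes at 0.996 to 0.997 within the 24 h group, at 0.995 to 0.996 within the 10 h group and at 0.994 to 0.996 between the groups. The gap between the 3' and the 5' control probe sets of Gapdh, which grows as RNA breaks down, averaged 0.20 ± 0.03 at 24 h and 0.20 ± 0.09 at 10 h (SD, n = 3 each; exact two-sided permutation p = 1), and that of Actb averaged 0.43 ± 0.03 at 24 h and 0.42 ± 0.02 at 10 h (exact permutation p = 0.6, and 0.9 after adjustment over 3 such measures; 3 against 3 arrays cannot go below 0.1). All 11 macrophage markers tested for, among them Csf1r, Adgre1 and Cd68, lay above the background level of 3.86 log2 on every array of both groups, and 0 of the 11 passed limma's test (5 had an unadjusted p under 0.05, 2 higher and 3 lower at 24 h). Over all genes tested, 13% had an unadjusted p under 0.05, 6.66% with a positive and 6.36% with a negative change, and such counts for gene lists are to be read against these shares. Of 9 endothelial markers, Vwf, Eng and Kdr lay above background on all arrays of both groups, and the sum of the 9 was 437 to 484 at 24 h and 469 to 539 at 10 h. Of 5 erythroid markers Klf1 lay above it on all 24 h arrays and Epor on all 10 h arrays, and the sum of the 5 was 56.9 to 73.8 at 24 h and 61.1 to 67.7 at 10 h. Of 10 fibroblast and stromal markers 0 lay above it on all arrays of either group. Of 6 dendritic cell markers, 0 lay above background on all 24 h arrays and 1 on all 10 h arrays. The sum of the 6 was 69.4 to 78.3 at 24 h and 73.2 to 84.3 at 10 h. The 5 of them tested had a negative change (median -0.14 log2) and 0 were called. The sum of 10 mast cell and basophil markers was 107 to 128 at 24 h and 113 to 115 at 10 h. Cd3d, Cd8a, Ms4a1, Cd79a, Cdh5, Pecam1, Col1a1 and Hba-a1 were at or below background on all 6 arrays. The T cell markers Cd3e, Cd4 and Cd28 and the B cell marker Cd79b lay above it on all 6. Cd28 was the brightest of these, at a mean of 9.46 log2 at 24 h and 9.23 at 10 h. The summed linear intensity of 8 T cell markers (3 above background at both times) was 764 to 853 at 24 h and 677 to 730 at 10 h, and that of 7 B cell markers (1 above background) was 92.3 to 104 at 24 h and 107 to 110 at 10 h. In such whole-culture RNA, fewer cells of a type and less of an RNA per cell cannot be told apart.

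Between 10 h and 24 h the genes that rose most included F13a1 of coagulation, the acute phase genes Saa3 and Hp, the scavenger receptor gene Marco and the lipid genes Pla2g7 and Apoc2. Those that fell most included the clock genes Cry1 and Tef, the elastase gene Mmp12 and the cell cycle inhibitor gene Cdkn1c. Of 13190 genes tested, 285 (2.16%) changed: 131 (0.993%) were higher and 154 (1.17%) were lower at 24 h at a limma adjusted p under 0.05. Most of these changes were small: the median was 0.36 log2 among the genes that rose and -0.39 among those that fell, and 93 and 106 of them were below 0.5 log2 in size. A change of 1 log2 or more was reached by 10 genes that rose (0.0758%) and 9 that fell (0.0682%), and these 9 include Per2, by a 24 h value below background. All 24 h arrays lay above all 10 h arrays in 130 of the 131, and below them in 152 of the 154. The shares over all genes tested were 8.01% and 7.88%. The genes were called from these same arrays, so their separation is largely built in and adds no support to the calls. The 3 exceptions, Cd52, Hells and Zfp974, were picked out after their values were seen. The median over all genes was -0.00081 log2 and 49.8% of them had a positive change, values that the normalization to one distribution holds near the centre. Counts of calls and of signs in the gene lists below are to be read against 2.16% called and 49.8% positive. Without 24 h replicate 1, 57 genes were higher and 88 lower, and without 24 h replicate 3, 78 were higher.

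The gene that rose most was F13a1, which encodes the A subunit of coagulation factor XIII, the enzyme that cross-links fibrin. Its log2 intensity was 10.35, 10.03 and 10.26 on the 24 h arrays, against 7.91, 7.59 and 7.91 on the 10 h arrays. The groups were far apart, with a change of 2.41 ± 0.13 log2 (limma SE, n = 3 arrays each), or 5.31-fold, and an adjusted p of 6.52e-12. Platelets and their precursors also carry factor XIII, and of 8 markers of those cells Pf4, Itgb3, Treml1 and Itga2b lay above background on all 6 arrays, whereas Gp9, Gp5, Gp6 and Ppbp were not above it on any. The sum of the 8 was 3110 to 3720 at 24 h and 3086 to 3566 at 10 h, most of it from Pf4, which averaged 11.70 log2 at 24 h and 11.63 at 10 h. The part of such cells in the rise of F13a1 was not tested. Saa3, the serum amyloid A gene that mouse macrophages themselves express, read 10.75, 10.47 and 10.77 at 24 h and 8.92, 8.69 and 8.80 at 10 h. It was 3.62-fold higher at 24 h. Cbr2, a carbonyl reductase gene, read 9.35, 9.15 and 9.56 at 24 h against 7.62, 7.76 and 8.06 at 10 h, a change of 1.54 ± 0.15 log2. Cd55, whose product protects cells from complement, was more variable, at 6.23, 6.78 and 5.42 at 24 h and 4.00, 4.86 and 5.18 at 10 h. The groups of Cd55 came within a short distance of each other but did not overlap, and its change was 1.46 ± 0.26 log2 with an adjusted p of 0.00197. Its dimmer probe sets moved by 2.33 and 2.53 log2.

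Next in size were Fpr2, a receptor for formylated peptides and for annexin A1, and Marco, a scavenger receptor for bacteria and particles. Fpr2 read 6.68, 6.69 and 7.27 at 24 h against 4.78, 5.60 and 5.99 at 10 h, a change of 1.42 ± 0.22 log2. Marco read 9.62, 9.33 and 9.53 at 24 h against 8.47, 8.07 and 8.30 at 10 h, a change of 1.21 ± 0.12 log2. Both genes had all 24 h arrays above all 10 h arrays. Mmp8, which encodes a collagenase best known from neutrophils, changed by 1.16 ± 0.16 log2, with 9.29, 9.06 and 9.04 at 24 h and 8.13, 7.94 and 7.85 at 10 h. Pla2g7, whose product inactivates platelet-activating factor, changed by 1.12 ± 0.12 log2, and Apoc2, the cofactor of lipoprotein lipase, by 1.09 ± 0.11 log2. Fpr2, Marco, Mmp8, Pla2g7 and Apoc2 kept their calls whichever of the 6 arrays was left out. Hp, the gene of haptoglobin, which captures free haemoglobin, rose 2.04-fold, with 8.83, 8.76 and 8.93 at 24 h against 7.41, 7.92 and 8.10 at 10 h. The last 5 of the 15 largest rises were Abcg3 (an ABC transporter gene, 0.99), Lcn2 (an iron-siderophore binding protein gene, 0.98), Vcan (the matrix proteoglycan versican, 0.91), Fhit (a nucleotide hydrolase gene, 0.89) and Ccl12 (a monocyte chemoattractant gene, 0.88 log2). Of these, Lcn2 just passed with an adjusted p of 0.04996 and lost its call on leaving out 24 h replicate 1 or 3 or 10 h replicate 1 or 2 (highest adjusted p 0.223), Abcg3 on leaving out any of the same arrays (highest 0.0876) and Ccl12 without 24 h replicate 1 (0.0693). A dimmer Abcg3 probe set moved by 0.29 log2, and the 4 dimmer Vcan probe sets by -0.03 to 0.52.

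Because Mmp8, Lcn2, Fpr2 and Hp are also genes of neutrophils, the neutrophil marker list was set beside them. Of its 12 markers, 8 lay above background on all 24 h arrays and 6 on all 10 h arrays, and their summed linear intensity was 1174 to 1339 at 24 h and 883 to 1164 at 10 h. Mmp8 is itself one of the 12, and the sum of the other 11 was 649 to 771 at 24 h and 638 to 884 at 10 h. Ngp, a gene of neutrophil granules, fell by 0.82 log2, with 5.83, 6.14 and 5.75 at 24 h against 6.98, 6.26 and 6.94 at 10 h. Elane and Cxcr2 were at or below background on all 6 arrays. The 8 markers above it on all 24 h arrays were S100a8, S100a9, Ngp, Ltf, Camp, Mmp8, Mmp9 and Csf3r. S100a8 averaged 8.56 log2 at 24 h and 8.48 at 10 h, and S100a9 averaged 7.12 and 7.56. The part of neutrophils in these rises was not tested. The call of Ngp was lost without 24 h replicates 1 or 3 or 10 h replicates 1 or 3 (highest adjusted p 0.0731).

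**Figure D1:**
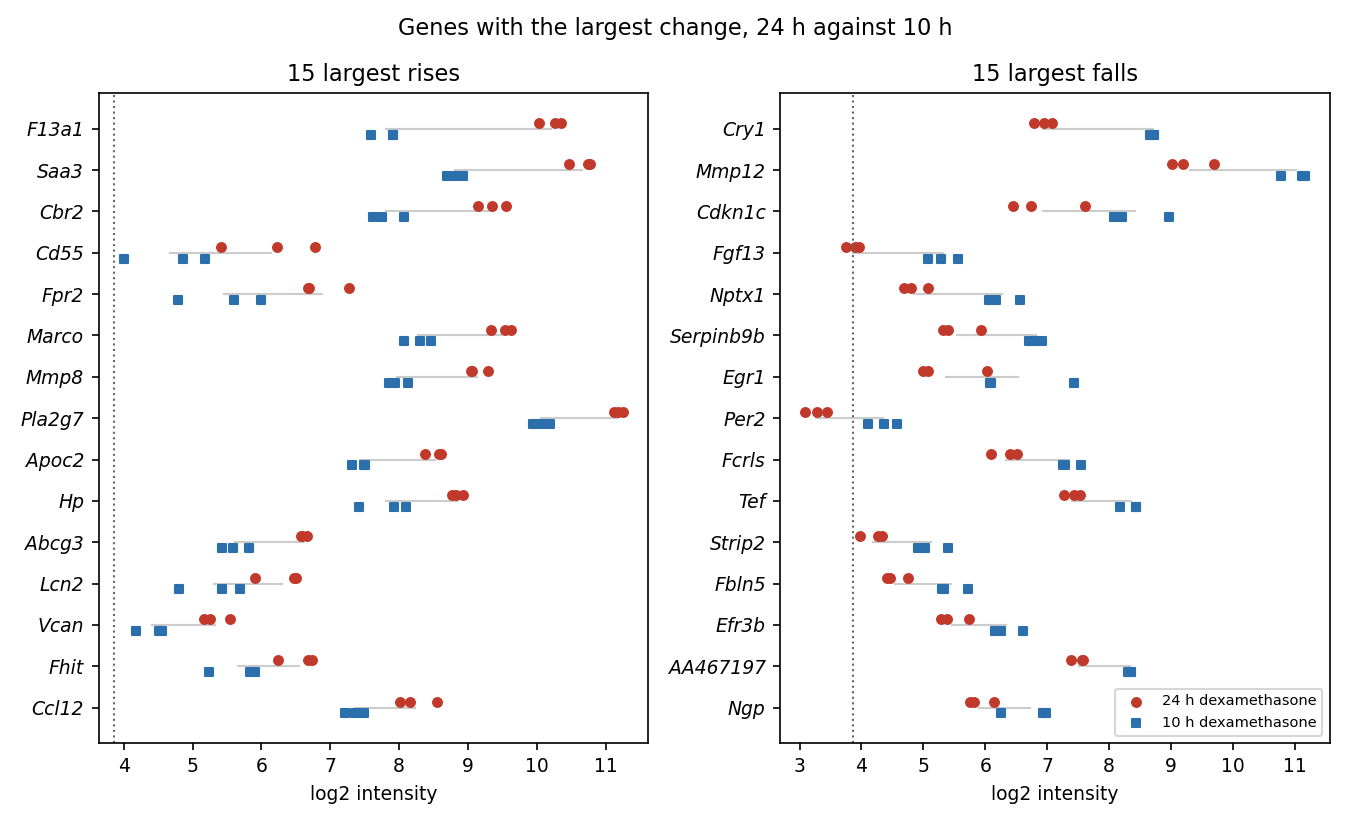
Log2 intensity (x axis) on each array for the 15 genes with the largest rise (left) and the 15 with the largest fall (right) from 10 h to 24 h. Red circles are the 3 arrays at 24 h, blue squares the 3 at 10 h, grey bars join the group means and the dotted line is the background level of 3.86; F13a1 at 10.03 to 10.35 stands clear of its 10 h arrays at 7.59 to 7.91, and the 24 h points of Per2 lie under the background line, so its place in the order rests on values below background.

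The largest fall was that of Cry1, a clock repressor described with its family below, and the next was that of Mmp12, the macrophage elastase. Mmp12 read 9.02, 9.69 and 9.20 on the 24 h arrays and 11.16, 11.12 and 10.77 on the 10 h arrays. It was 3.28-fold lower at 24 h (adjusted p 1.04e-09), with more than 1 log2 between the closest arrays of the 2 groups. Cdkn1c, which encodes the cyclin-dependent kinase inhibitor p57, read 6.44, 7.62 and 6.73 at 24 h and 8.09, 8.96 and 8.22 at 10 h. Replicate 2 was the highest at both times, and the groups did not overlap. Its change was -1.49 ± 0.21 log2. Fgf13, an intracellular member of the fibroblast growth factor family, read 3.75, 3.96 and 3.90 at 24 h against 5.56, 5.29 and 5.08 at 10 h. At 24 h its replicate 1 lay below background, so the change of -1.44 ± 0.18 log2 rests on values near the floor of the array. Nptx1, a pentraxin gene, fell by 1.41 log2 and Serpinb9b, an intracellular serpin gene, by 1.27 log2. Egr1, an immediate-early transcription factor gene, read 5.07, 6.02 and 4.999 at 24 h and 6.07, 7.43 and 6.10 at 10 h, again with replicate 2 highest at both times, and fell by 1.17 ± 0.28 log2. Smaller falls were those of Fcrls (an Fc receptor-like gene, -1.02), Strip2 (-0.93), Fbln5 (the elastic fibre protein fibulin 5, -0.91), Efr3b (-0.87) and AA467197 (-0.83 log2). Nptx1, Egr1 and Efr3b lost their calls when single arrays were left out: 24 h replicates 1 and 3 for all 3 genes, with 10 h replicates 1 and 3 for Nptx1 (highest adjusted p 0.116) and 10 h replicate 2 for Egr1 (0.169) and Efr3b (0.0606). A dimmer Nptx1 probe set moved by -0.15 log2 and a dimmer Fgf13 probe set by -0.10.

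Set in the whole series, these genes had different histories. F13a1 averaged 4.78 at baseline, 4.98 at 1 h, 5.21 at 2 h, 5.89 at 4 h, 7.80 at 10 h and 10.21 at 24 h. Saa3 stayed between 7.17 and 7.51 up to 4 h and then averaged 8.80 at 10 h and 10.66 at 24 h. Marco lay between 7.48 and 7.72 up to 4 h and averaged 8.28 at 10 h and 9.49 at 24 h. These 3 genes had their highest mean at 24 h. Mmp12 averaged 11.62 to 11.69 up to 4 h, 11.02 at 10 h and 9.31 at 24 h. Cdkn1c averaged 9.24 to 9.44 up to 4 h, 8.42 at 10 h and 6.93 at 24 h. Both had their lowest mean at 24 h. Dusp1 instead averaged 8.83 at baseline and 12.20 at 1 h, 11.67 at 10 h and 11.12 at 24 h, and so was still far above baseline at the end.

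**Figure D2:**
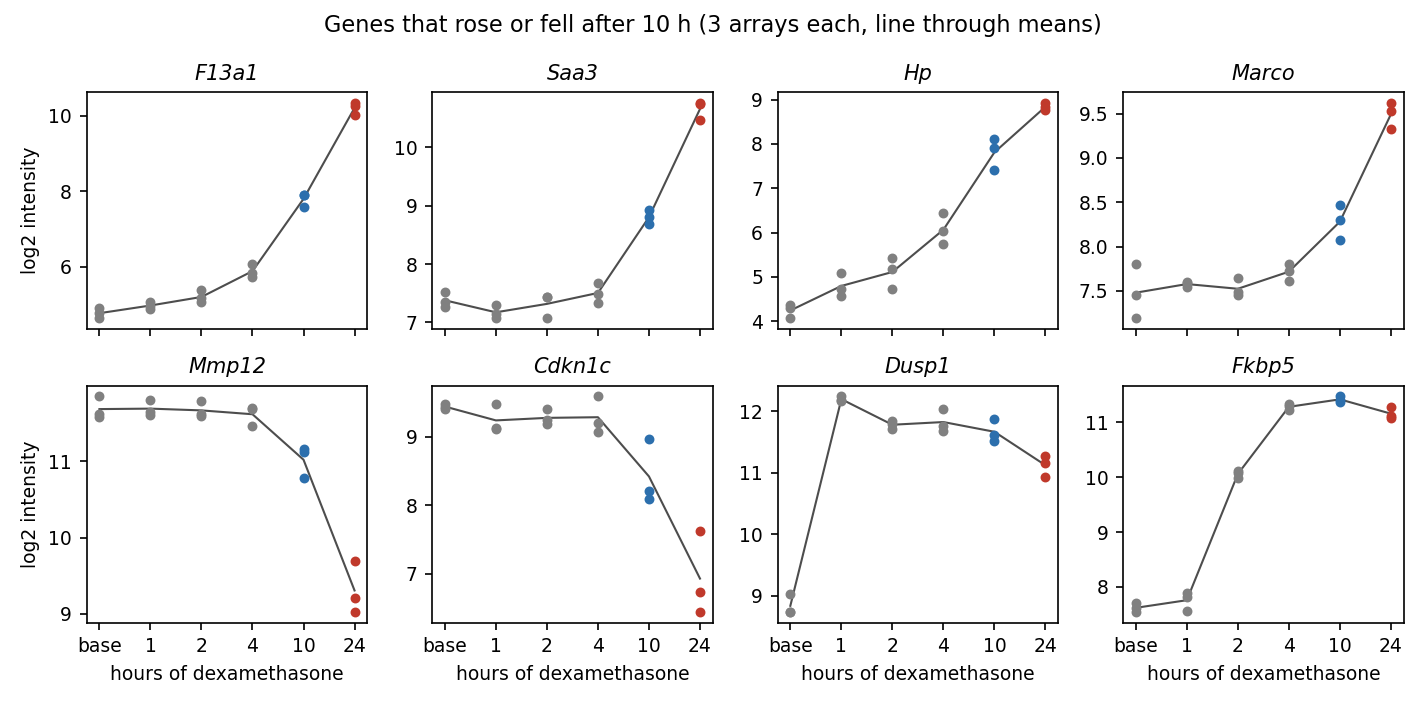
Log2 intensity (y axis) at baseline and after 1, 2, 4, 10 and 24 h of dexamethasone (x axis, evenly spaced) for 8 genes, 3 arrays per time as points and a line through the means. Red points are 24 h, blue points 10 h and grey points the other times; F13a1, Saa3, Hp and Marco end at their highest mean, Mmp12 and Cdkn1c at their lowest, and Dusp1 and Fkbp5 remain above baseline at 24 h.

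Of the clock repressors 44.4% were called and of the clock activators and output factors 12.5%, against 2.16% of all genes tested. These short lists were chosen with earlier results of these data known, so the shares are no test. Of 9 repressors tested, 3 fell (Cry1, Per2 and Cry2) and 1 rose (Nr1d2), and of 8 activators and output factors 1 fell (Tef), with list medians of -0.10 and 0.01 log2 against -0.00081 over all genes. Cry1 and Cry2 encode the cryptochromes, which block CLOCK and BMAL1 directly. Cry1 read 7.08, 6.94 and 6.79 at 24 h against 8.73, 8.66 and 8.73 at 10 h. The 3 arrays of each time lay close together, and the gene was 3.41-fold lower at 24 h, -1.77 ± 0.08 log2 with an adjusted p of 1.16e-12. Its mean had been 7.39 to 7.45 at baseline and at 1, 2 and 4 h, so the 10 h arrays were a peak and the 24 h arrays, at a mean of 6.94, were below the starting level. Cry2 read 4.90, 4.77 and 5.12 at 24 h against 5.35, 5.87 and 5.97 at 10 h, a change of -0.80 ± 0.17 log2. Its adjusted p was 0.00975, and it lost the call without 24 h replicates 1 or 2 or 10 h replicates 2 or 3 (highest adjusted p 0.0708).

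Per2, a partner of the cryptochromes, was not above background on any 24 h array, at 3.28, 3.44 and 3.09, and was above it on all 10 h arrays, at 4.10, 4.36 and 4.58. Set against the background level it was at least 1.41-fold lower at 24 h (adjusted p 0.00015), the means being 3.27 and 4.35. A second, slightly dimmer Per2 probe set, at a mean of 3.50 log2 over all arrays, moved by -0.13 log2. Nr1d2, which encodes the nuclear receptor REV-ERB beta, a repressor of Bmal1, went the other way. It read 8.96, 9.14 and 9.11 at 24 h against 8.51, 8.56 and 8.40 at 10 h, a change of 0.58 ± 0.06 log2. The 10 h arrays of Nr1d2 were the low point of the series: its mean was 9.44 to 9.56 up to 4 h, 8.49 at 10 h and 9.07 at 24 h. Tef, a PAR-bZIP output factor that binds D-box elements, read 7.53, 7.43 and 7.27 at 24 h against 8.44, 8.17 and 8.44 at 10 h, a change of -0.94 ± 0.08 log2. A second, dimmer Tef probe set moved by -0.27 log2.

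The other clock genes did not pass, although Nfil3 (adjusted p 0.0271 without 24 h replicate 2) and Bhlhe40 (0.0479 with a replicate block over the 6 arrays) did under 1 alternative each. Per1, which glucocorticoids raise directly, read 8.35, 8.45 and 8.17 at 24 h and 8.47, 8.56 and 8.24 at 10 h, an overlap with a change of -0.10 ± 0.10 log2 (adjusted p 0.743). Its mean was 6.25 at baseline and 8.79 at 2 h, the highest of the series. Arntl, the gene of BMAL1, read 7.32, 7.13 and 7.30 at 24 h and 6.85, 7.17 and 7.002 at 10 h (0.24 ± 0.11 log2, adjusted p 0.33). Its mean had been 6.28 at baseline and 6.91 at 4 h. Clock itself changed by 0.11, Rora by -0.04, Per3 by 0.12 and Ciart by 0.24 log2. Npas2 was above background on 1 of 3 arrays at 24 h and 0 of 3 at 10 h, and Hlf on 2 of 3 at each time, so no size of change is given for them. Among the further repressors and output factors the values were -0.26 log2 for Bhlhe40, -0.06 for Bhlhe41, -0.26 for Dbp and -0.40 for Nfil3, a repressor that competes with Tef (adjusted p 0.211). For each of these uncalled genes the 24 h arrays overlapped the 10 h arrays.

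The promoters of the called clock genes are shown because CLOCK and BMAL1 act through the E-box, the palindrome CACGTG, and the cryptochromes act on them there. RefSeq promoters (250 bases before to 50 after a start, build GRCm38.p6) were given for 15 of the 17 clock genes and not for Per2. Capitals mark each E-box, and the Cry1 promoter is chr10:85185005-85185304 on the minus strand, the Tef promoters are chr15:81802423-81802722 and chr15:81811164-81811463 on the plus strand the Cry2 promoter is chr2:92434020-92434319 on the minus strand and the Nr1d2 promoter is chr14:18239057-18239356 on the minus strand.
Cry1: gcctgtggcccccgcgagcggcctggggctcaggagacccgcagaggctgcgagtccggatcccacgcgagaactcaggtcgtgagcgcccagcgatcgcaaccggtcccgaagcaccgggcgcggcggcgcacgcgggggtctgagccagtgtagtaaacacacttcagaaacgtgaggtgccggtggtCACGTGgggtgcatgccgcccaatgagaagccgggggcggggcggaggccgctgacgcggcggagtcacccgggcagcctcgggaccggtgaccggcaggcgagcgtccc
Tef start 1: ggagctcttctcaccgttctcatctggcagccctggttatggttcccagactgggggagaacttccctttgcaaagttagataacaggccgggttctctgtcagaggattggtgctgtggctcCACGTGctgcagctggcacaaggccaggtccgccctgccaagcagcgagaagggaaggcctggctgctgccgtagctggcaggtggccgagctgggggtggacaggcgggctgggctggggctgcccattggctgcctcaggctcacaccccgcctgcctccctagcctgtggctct
Tef start 2: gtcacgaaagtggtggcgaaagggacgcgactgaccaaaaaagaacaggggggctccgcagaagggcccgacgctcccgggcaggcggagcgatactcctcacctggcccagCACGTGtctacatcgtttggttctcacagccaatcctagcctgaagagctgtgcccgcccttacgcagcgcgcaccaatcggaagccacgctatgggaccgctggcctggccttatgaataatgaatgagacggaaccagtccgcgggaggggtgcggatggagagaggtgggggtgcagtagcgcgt
Cry2: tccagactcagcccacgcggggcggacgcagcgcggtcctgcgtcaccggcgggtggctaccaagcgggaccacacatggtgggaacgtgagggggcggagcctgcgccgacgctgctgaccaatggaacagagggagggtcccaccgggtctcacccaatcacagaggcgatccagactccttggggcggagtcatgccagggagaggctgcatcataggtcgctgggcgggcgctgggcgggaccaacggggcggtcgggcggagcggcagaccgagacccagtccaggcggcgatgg
Nr1d2: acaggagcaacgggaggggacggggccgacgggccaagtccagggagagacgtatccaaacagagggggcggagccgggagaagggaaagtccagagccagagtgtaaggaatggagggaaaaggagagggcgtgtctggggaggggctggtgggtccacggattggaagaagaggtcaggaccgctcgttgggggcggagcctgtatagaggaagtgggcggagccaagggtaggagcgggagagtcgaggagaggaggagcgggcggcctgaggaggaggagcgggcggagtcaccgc
Cry1 and both Tef starts hold 1 E-box each, and the Cry2 and Nr1d2 windows hold none. An E-box lay in the window of 5 of the 15 clock genes (33.3%), namely Cry1, Tef, Per1, Ciart and Bhlhe41, against 11.1% of tested genes with a promoter and 8.09% of all genes in the table. It lay in 22 of 131 genes lower at 24 h (16.8%) and 11 of 106 genes higher at 24 h (10.4%) that had a promoter entry. The D-box TTANGTAA occurred in 1 of the 15 clock genes, Per3, and the element ANTNGGTCA bound by ROR and REV-ERB proteins in 2, Arntl and Nfil3, with shares of 1.83% and 2.21% over tested genes. Both strands were searched, 0 matches of different motifs overlapped in the clock promoters, and a match describes these letters only.

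**Figure D3:**
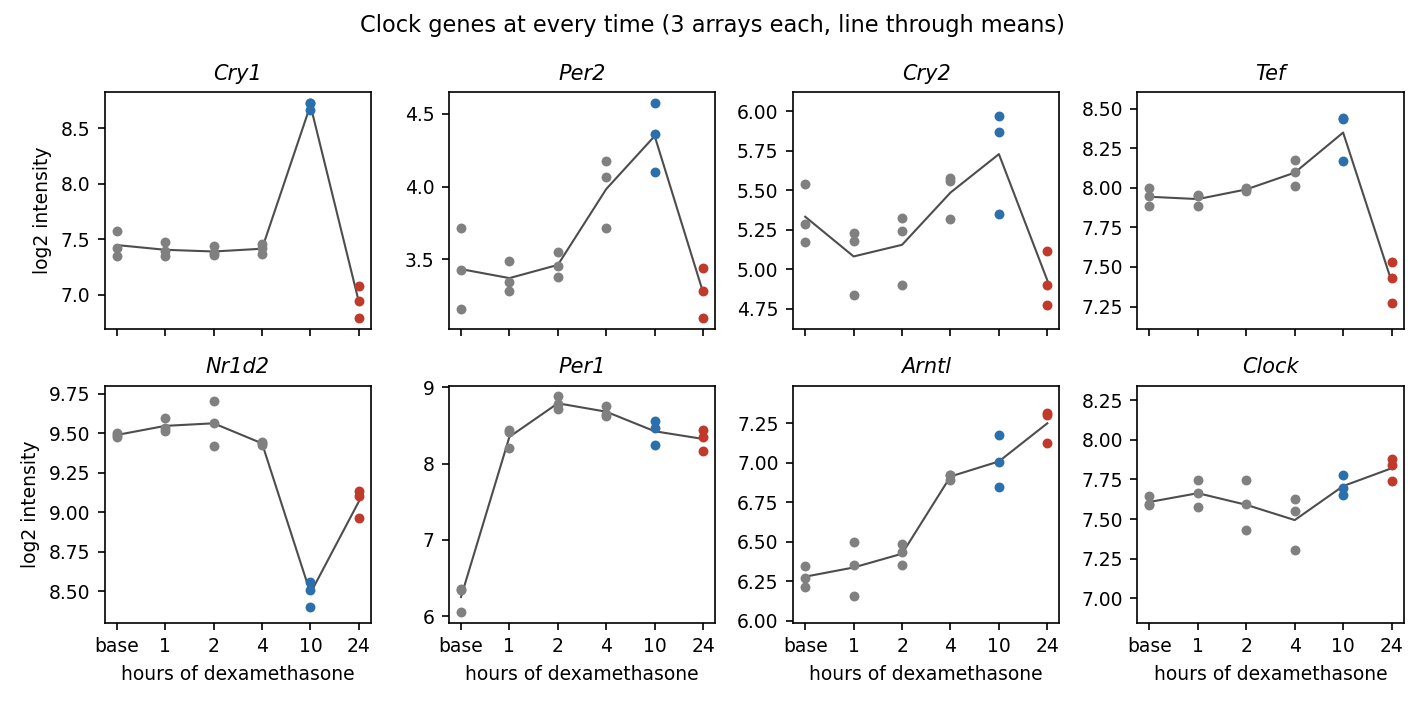
Log2 intensity (y axis) of 8 clock genes at baseline and after 1, 2, 4, 10 and 24 h of dexamethasone (x axis, evenly spaced), 3 arrays per time as points (red 24 h, blue 10 h, grey the others) and a line through the means. Cry1, Cry2 and Tef have their highest mean at 10 h and their lowest at 24 h, the mean of Per2 is highest at 10 h and lies below background at 24 h and up to 2 h, Nr1d2 has its low point at 10 h, and Per1, Arntl and Clock do not pass the test between 24 h and 10 h.

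Among 28 known targets of the receptor that were tested, 4 fell (Cdkn1c, Dusp1, Mt1 and Fkbp5) and 1 rose (Tgm2). That is 17.9% called, against 2.16% of all genes tested. A negative change was seen in 21 of the 28, and the list median was -0.17 log2. A positive change was seen in 25% of the list, against 49.8% of all genes. At 4 h, 15 of the 28 were higher and 2 lower than at baseline, so not all were raised in these cells. Cdkn1c stood -0.16 log2 from baseline at 4 h (adjusted p 0.779) and -1.02 log2 at 10 h. Tgm2 read 7.70, 7.75 and 7.63 at 10 h against 8.46, 8.78 and 8.35 at baseline. Dusp1, whose product removes the activating phosphates of MAP kinases, read 10.93, 11.28 and 11.16 at 24 h against 11.52, 11.87 and 11.61 at 10 h, a change of -0.55 ± 0.09 log2. Fkbp5, an inhibitor of the receptor's own chaperone complex, read 11.12, 11.08 and 11.28 at 24 h against 11.42, 11.37 and 11.47 at 10 h. The shift of Fkbp5 was -0.26 ± 0.07 log2, with an adjusted p of 0.0481, and the call was lost without any 1 array other than 24 h replicate 3 (highest adjusted p 0.201). It averaged 7.62 at baseline, so both times were far above the untreated level. Tsc22d3, the gene of GILZ, a mediator of anti-inflammatory glucocorticoid action, read 10.97, 11.06 and 11.04 at 24 h against 11.33, 11.24 and 11.11 at 10 h and did not pass (-0.20 ± 0.06 log2, adjusted p 0.0732). It passed as lower at 24 h under 3 alternatives, the replicate block over 18 arrays and over the 6 arrays and the fit without 10 h replicate 3 (lowest adjusted p 0.00811). Mt1, a metallothionein gene, fell by 0.31 log2, and Tgm2, a transglutaminase gene, rose by 0.45 log2, a call lost without 24 h replicates 1 or 2 or 10 h replicates 1 or 3 (highest adjusted p 0.139). The receptor gene Nr3c1 read 8.36, 8.22 and 8.36 at 24 h and 8.51, 8.16 and 8.41 at 10 h, with a change of -0.05 ± 0.08 log2 (adjusted p 0.887).

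Of 19 genes in the acute phase, haptoglobin and iron list, 4 rose (Saa3, Hp, Lcn2 and Slc40a1) and 0 fell, and 15 of 19 had a positive change, with a median of 0.09 log2. Slc40a1 encodes ferroportin, the iron exporter, and read 8.60, 8.84 and 8.64 at 24 h against 7.88, 8.58 and 8.01 at 10 h, a change of 0.54 ± 0.14 log2. That call was lost without any 1 array other than 10 h replicate 2 (highest adjusted p 0.227). In the complement list of 11 genes, Cd55 rose by 1.46, C1qc by 0.34 and C1qb by 0.22 log2, and Itgax, a chain of complement receptor 4, fell by 0.59 log2. C1qc, a chain of the initiating complex C1q, read 11.60, 11.58 and 11.59 at 24 h and 11.22, 11.21 and 11.31 at 10 h. C1qb lost its call without any 1 array other than 10 h replicate 3 (highest adjusted p 0.0861), and Itgax without any other than 10 h replicate 1 (0.186). Of 14 coagulation genes only F13a1 rose and only Procr, the protein C receptor gene, fell, by 0.64 ± 0.10 log2 to 6.62, 6.75 and 6.64 at 24 h, against 7.23, 7.36 and 7.34 at 10 h.

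Surface receptors for particles and sugars moved in both directions. In the list of 23 C-type lectin and scavenger receptors, 5 rose (Marco, Clec4n, Clec4a2, Stab1 and Clec4d) and 2 fell (Clec7a and Cd36), with a median of -0.02 log2. Clec4n, the gene of Dectin-2, read 7.81, 7.57 and 7.86 at 24 h against 7.22, 6.95 and 7.15 at 10 h, and Clec4a2, an inhibitory lectin receptor gene, changed by 0.55 ± 0.08 log2. Clec7a, the gene of the beta-glucan receptor Dectin-1, read 6.29, 6.39 and 6.46 at 24 h against 6.89, 6.91 and 6.80 at 10 h. So the genes of Dectin-2 and Dectin-1 went opposite ways, by 0.64 ± 0.12 and -0.49 ± 0.10 log2. Cd36, a scavenger and fatty acid receptor gene, fell by 0.30 log2, and Stab1, a receptor gene for modified lipoproteins, rose by 0.43 log2. In the lipid list of 26 genes, 3 rose (Pla2g7, Apoc2 and Fabp5) and 3 fell (Fabp3, Cd36 and Lpl), with a median of -0.09 log2. Apoc2 rose by 1.09 log2 while Lpl, the lipase that its product activates, fell by 0.24 log2. Whether the call of Lpl held with single arrays left out was not examined. Clec7a lost its call without 24 h replicate 1 (adjusted p 0.0663), Stab1 without 24 h replicates 1 or 3 or 10 h replicates 1 or 3 (highest 0.0877), and Fabp3 without any 1 array other than 24 h replicate 2 (highest 0.227).

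Protease genes were split. Of 15 metalloproteinases, sheddases and inhibitors, Mmp8, Mmp14 (0.58 log2) and Adam17 (0.28 log2) rose and Mmp12 fell. Adam17 encodes the sheddase of tumour necrosis factor and read 10.51, 10.43 and 10.45 at 24 h against 10.32, 10.11 and 10.13 at 10 h. Mmp14, a membrane collagenase gene, passed with an adjusted p of 0.046 and lost its call whichever of the 6 arrays was left out (highest adjusted p 0.197). Among 44 lysosomal genes, 2 protease genes rose, Ctsh by 0.26 and Lgmn by 0.22 log2, and 0 fell. Of 19 genes in the MHC class II and costimulation list, H2-Aa and H2-Eb1 fell and 0 rose (10.5% called, against 2.16% of all genes tested). A negative change was seen in 14 of 19, with a median of -0.08 log2. A positive one was seen in 26.3%, against 49.8% of all genes. H2-Aa, a class II chain, read 5.90, 6.66 and 6.08 at 24 h against 7.22, 6.75 and 6.98 at 10 h, so 24 h replicate 2 came close to the 10 h arrays. H2-Aa was lost without 24 h replicates 1 or 3 or 10 h replicate 1 (highest adjusted p 0.119), and H2-Eb1 without 24 h replicates 1 or 2 or 10 h replicates 2 or 3 (0.254). Dimmer H2-Aa probe sets moved by -0.29 and -0.16 log2, and the H2-Aa call was also lost with the mean of all probe sets (limma adjusted p 0.1335).

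Of 22 eicosanoid and annexin genes, 2 rose (Cysltr1 by 0.45 and Pla2g4a by 0.29 log2) and 2 fell (Ephx1, described next, and Anxa2 by 0.14 log2). Of 24 genes of G protein signalling and purinergic receptors, 3 rose (P2ry13 by 0.57, P2rx4 by 0.21 and Entpd1 by 0.51 log2) and 2 fell (Rgs1 by 0.45 log2 and Gpr84). Cysltr1 lost its call without 24 h replicate 1 (adjusted p 0.09), Rgs1 without 24 h replicate 1 or 10 h replicate 2 (highest 0.09), Pla2g4a without 24 h replicates 2 or 3 or 10 h replicates 1 or 2 (0.245), Anxa2 without any 1 array other than 10 h replicate 2 (0.141) and P2ry13 without any other than 10 h replicate 1 (0.196). Ephx1, the microsomal epoxide hydrolase gene, fell to 7.21, 7.14 and 7.44 at 24 h, against 7.90, 7.94 and 8.02 at 10 h, a change of -0.69 ± 0.08 log2. Entpd1, which encodes the ectonucleotidase CD39 that breaks down extracellular ATP, read 7.66, 7.76 and 7.75 at 24 h against 7.18, 7.26 and 7.20 at 10 h, a change of 0.51 ± 0.09 log2. Ephx1 and Entpd1 kept their calls whichever array was left out. In the Nrf2 and antioxidant list of 29 genes, 3 rose (Cbr2, Gpx3 and Sod2) and 3 fell (Mt1, Gclm and Sod1), with a median of -0.02 log2. Of 31 cytokine and chemokine genes 2 rose and 0 fell, Ccl12 by 0.88 and Ccl6 by 0.41 log2. Ccl6 read 12.09, 12.11 and 12.03 at 24 h against 11.68, 11.68 and 11.65 at 10 h. Chil3, the chitinase-like gene of alternatively activated mouse macrophages, rose by 0.84 log2, with 8.44, 8.57 and 8.72 at 24 h and 7.99, 7.17 and 8.04 at 10 h. Cd9, a tetraspanin gene, had tight arrays and fell to 11.92, 12.02 and 12.02 at 24 h, against 12.43, 12.47 and 12.45 at 10 h. Gpx3 lost its call whichever of the 6 arrays was left out (highest adjusted p 0.244) and Gclm without 24 h replicate 3 or 10 h replicates 1 or 2 (0.169).

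Lists of growth and metabolism shifted by small amounts, mostly without calls. Of 46 DNA replication genes, 43 (93.5%) had a positive change, against 49.8% of all genes tested, with a median of 0.14 log2. In this list 4 rose (Mcm2 by 0.34, Mcm3 by 0.31, Rpa3 by 0.29 and Rfc2 by 0.24 log2). That is 8.7% called, against 2.16% of all genes. Mcm2 and Mcm3 belong to the replicative helicase. Against baseline the list median was -0.10 at 10 h and 0.05 at 24 h. Mcm2 lost its call without 24 h replicate 1 (adjusted p 0.0955), Mcm3 without 24 h replicates 1 or 3 or 10 h replicates 1 or 2 (highest 0.219), Rpa3 without any 1 array other than 10 h replicate 2 (0.169) and Rfc2 without 24 h replicates 2 or 3 or 10 h replicate 2 (0.108). Of 57 mitosis genes 0 passed limma's test, with a median of 0.01 log2, and 3 had an unadjusted p under 0.05, all with a positive change. Cdkn1c and Mxd4, which encode an inhibitor of cyclin-dependent kinases and an antagonist of MYC, were the only calls among 26 cell cycle regulators. Mxd4 read 7.68, 7.62 and 7.67 at 24 h against 8.09, 8.29 and 8.34 at 10 h, and its 3 dimmer probe sets moved by -0.37 to 0.17 log2.

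Of 29 genes of sterol and fatty acid synthesis, 27 (93.1%) had a positive change, against 49.8% of all genes tested, and the median was 0.26 log2. However, 0 passed limma's test and 9 had an unadjusted p under 0.05, all with a positive change. Against baseline the list median was -0.41 at 10 h and -0.11 at 24 h. The members with the highest change, chosen after their values were seen, were Mvd at 0.66 log2 (adjusted p 0.159) and Hsd17b7 at 0.52 log2 (0.169), both enzymes of cholesterol synthesis. Among 36 interferon-stimulated genes 26 had a positive change, the median was 0.11 log2 and 1 rose, Rsad2, which encodes the antiviral protein viperin. Rsad2 read 8.77, 8.50 and 8.73 at 24 h against 7.54, 8.15 and 7.98 at 10 h, a change of 0.78 ± 0.19 log2, and lost its call without 24 h replicates 1 or 3 or 10 h replicates 1 or 3 (highest adjusted p 0.184). Of 37 genes of the endoplasmic reticulum stress and amino acid responses, 5 rose, all encoding chaperones or folding enzymes or their partners (Hyou1 0.31, Sdf2l1 0.25, Hsp90b1 0.23, Pdia6 0.23 and Dnajc3 0.18 log2), and 0 fell. Sdf2l1 kept its call whichever array was left out, whereas Hyou1 lost its call without 24 h replicates 1 or 2 or 10 h replicate 1 (highest adjusted p 0.0968), Pdia6 without 24 h replicates 1 or 3 or 10 h replicates 2 or 3 (0.11) and Hsp90b1 without 24 h replicate 1 or 10 h replicate 3 (0.112). Of 31 glycolysis and hypoxia genes, 3 fell by small amounts (Pdk1 by 0.25, Pkm by 0.17 and Ldha by 0.15 log2) and 22 had a negative change. Pdk1 lost its call without any 1 array other than 10 h replicate 1 (highest adjusted p 0.142), Pkm without 24 h replicates 1 or 3 or 10 h replicates 2 or 3 (0.197) and Ldha without 24 h replicates 2 or 3 or 10 h replicates 1 or 2 (0.198). Lists with 0 calls by limma included the cytokine receptors and SOCS genes (31 tested, 9 with an unadjusted p under 0.05, 5 of them higher), NF-kappaB components (18 tested, 4, all lower), Toll-like receptor signalling (20 tested, 4, of which 3 lower) and the mitochondrial respiratory chain (46 tested, 6, of which 5 lower). The same held for the osteoclast genes (13 tested, 3 with an unadjusted p under 0.05), the Kruppel-like and C/EBP factors (28 tested, 5), the mTOR and FoxO list (23 tested, 5), Fc receptors (7 tested, 3) and S100 genes (9 tested, 1). Of 9 genes of the MS4A family of membrane proteins, 8 had a positive change, with a median of 0.24 log2, and 1 rose, Ms4a4b.

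**Figure D4:**
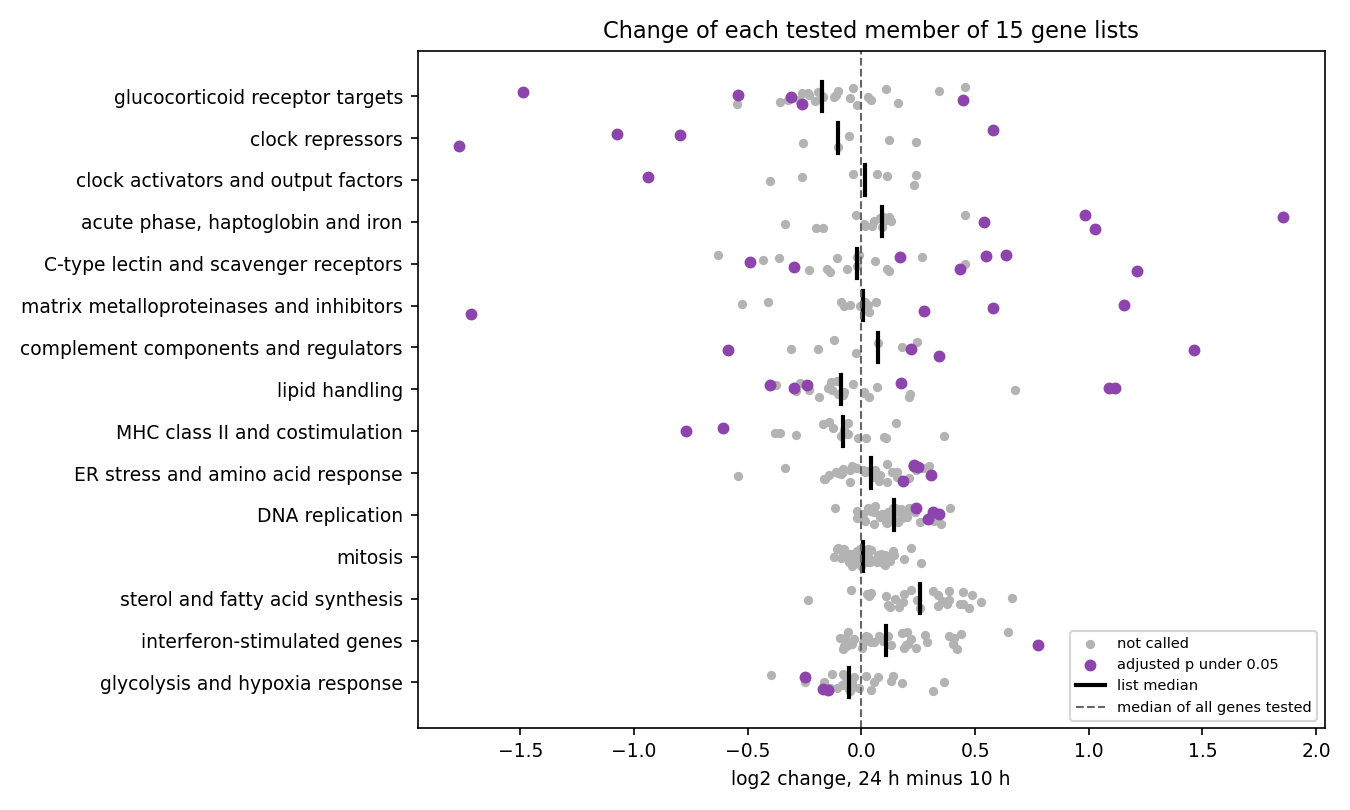
Log2 change from 10 h to 24 h (x axis, 24 h minus 10 h) of every tested member of 15 gene lists (y axis). Grey points did not pass, purple points had an adjusted p under 0.05, black bars are list medians and the dashed line is the median of all 13190 genes; the medians of the sterol (0.26 log2) and DNA replication (0.14 log2) lists lie to the right with few or no called members, and the calls of the clock lists lie mostly to the left.

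The early response at 4 h against baseline shares no array with the step from 10 h to 24 h, so the genes called in each can be set side by side. Both come from 1 fit with 1 estimate of each gene's spread, so the calls are not fully independent. At 4 h, 992 genes (7.52%) differed from baseline: 593 (4.5%) were higher and 399 (3.03%) lower than at baseline. Of the 154 genes that fell between 10 h and 24 h, 56 (36.4%) had been higher at 4 h than at baseline and 6 (3.9%) lower. Those 56 are 9.44% of the genes higher at 4 h, where 1.17% of all genes fell in the step. Of the 131 genes that rose, 26 (19.8%) had been lower at 4 h and 8 (6.11%) higher, and the 26 are 6.52% of the genes lower at 4 h. The remaining 92 and 97 genes were not called at 4 h.

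Among genes higher at 4 h that then fell were Per2, whose 24 h level was below background, Strip2, AA467197 and Inafm1. Strip2 read 4.26, 3.97 and 4.34 at 24 h against 4.91, 5.03 and 5.41 at 10 h, after means of 3.00 at baseline, below background, and 4.12 at 4 h. Inafm1 fell by 0.76 log2 and stood 0.13 log2 above baseline at 24 h, against 0.90 log2 at 10 h. Fos, a component of the AP-1 transcription factor, read 8.72, 9.11 and 8.97 at 24 h against 9.28, 9.68 and 9.47 at 10 h, having been 1.39 log2 above baseline at 4 h. Fos and Egr1 were the only calls among 27 AP-1, Egr and immediate-early genes. Among genes lower at 4 h that then rose were Ccl12, Cnrip1, Slc40a1 and St18. Cnrip1, which encodes a protein that binds the cannabinoid receptor CB1, read 9.53, 9.85 and 9.62 at 24 h against 9.16, 9.05 and 8.96 at 10 h. Slc40a1 had been 1.39 log2 below baseline at 4 h and was 0.09 log2 below it at 24 h. The 8 genes that went on rising included F13a1, Hp, Chil3 and Ms4a4b, and the 6 that went on falling included Pcp4l1, Pcdh7, Clec7a and Gpr84. Hp had been 1.82 log2 above baseline at 4 h and was 4.60 above it at 24 h. Of these, Ccl12 and Clec7a (above), St18 (highest adjusted p 0.177), Ms4a4b (0.115), Slc40a1 (0.227) and Gpr84 (0.146) lost the call of the step without single arrays: 24 h replicates 1 and 3 and 10 h replicates 1 and 3 for St18, 24 h replicates 1 and 3 and 10 h replicates 1 and 2 for Ms4a4b, any 1 array but 10 h replicate 2 for Slc40a1 and any but 10 h replicate 1 for Gpr84.

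**Figure D5:**
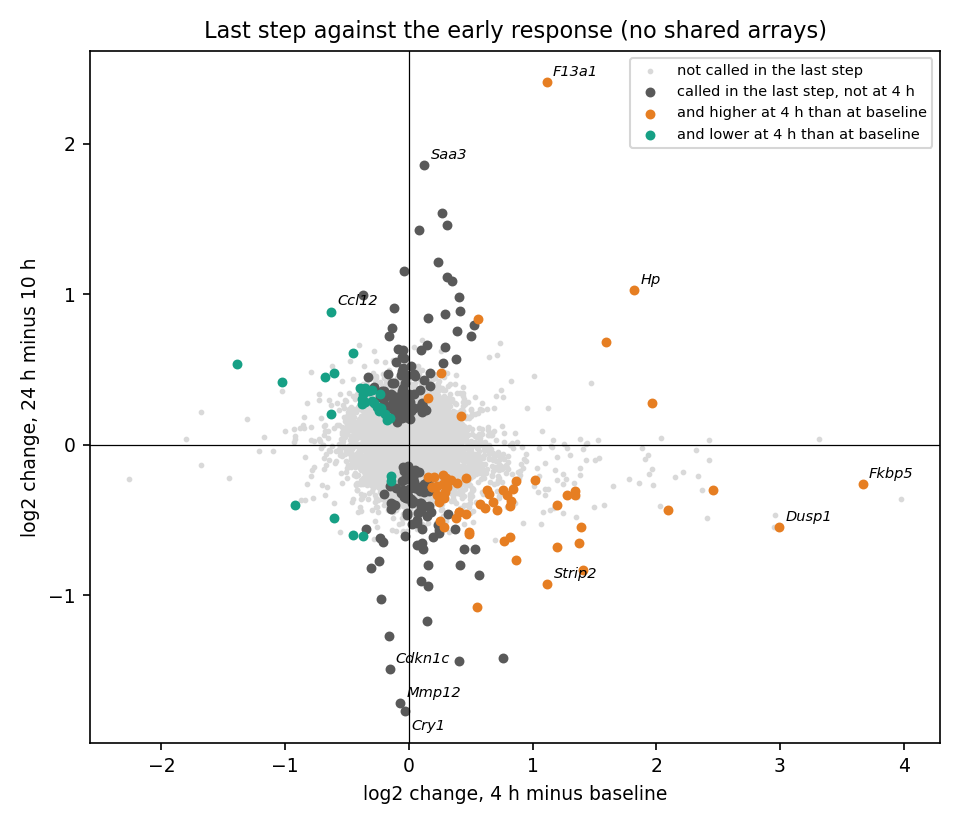
Log2 change from 10 h to 24 h (y axis) against log2 change from baseline to 4 h (x axis), 1 point per gene; the axes share no array. Pale points were not called in the step from 10 h to 24 h, and called genes are dark grey where not called at 4 h, orange where higher and green where lower at 4 h; 56 orange points lie below 0 and 26 green points above it.

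A direct test asked whether a gene's step from 10 h to 24 h differed from its own step from 4 h to 10 h. The steps were compared as whole changes and not per hour, although the later one lasted longer. The 10 h arrays end the earlier step and begin the later one, so they weigh most in this test. By that test 199 genes (1.51% of genes tested) differed, 89 (0.675%) with the more positive and 110 (0.834%) with the more negative later step. Among genes called between 10 h and 24 h, 30 of the 131 that rose and 57 of the 154 that fell were in that set. The 24 h and 10 h arrays enter both tests, so part of this overlap is built in. For Cry1 the later step was 3.06 log2 below the earlier one (-3.06, adjusted p 1.2e-12), the earlier one being 1.29 log2. Strip2 (-1.92), Fgf13 (-1.60) and Gpr84 (-1.48) followed. Gpr84, a receptor gene for medium-chain fatty acids, read 7.30, 7.14 and 7.19 at 24 h against 7.51, 7.68 and 7.63 at 10 h, after a mean of 6.52 at 4 h. In the other direction the leading genes were Rsad2 (1.98), Nr1d2 (1.53), Slc15a3 (a peptide transporter gene, 1.11) and Tmem273 (0.98 log2), whose earlier steps were -1.20, -0.95, -0.73 and -0.62 log2. F13a1 (0.50), Saa3 (0.56), Hp (-0.72) and Cdkn1c (-0.63 log2) did not pass this test (adjusted p 0.361, 0.177, 0.385 and 0.528), and Mmp12 did (-1.12 log2, adjusted p 0.00383). Without 10 h replicate 1 the test called 104 genes and without 10 h replicate 3 it called 102.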

How the data were processed

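Gene expression was measured on Affymetrix arrays, and the deposited intensity of each probe set is on a linear scale, made by the authors with the RMA method of the affy package; this comes from the submitters' processing notes, without versions. RMA corrects background, brings the arrays to one distribution and combines each set's probes; any shift common to most genes is lost in it. Array number, not read depth, limits the precision. The samples were grouped by their labelled time. An evenly stepped run of 211 probe sets on baseline replicate 1 was left out of all arrays; it took 77 genes with it.

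Log2 intensities were computed here. Of 45141 probe sets, 28898 had 1 gene symbol, and the brightest stood for each of 17097 genes; the 13190 genes that reached their array's 40th percentile on at least 3 arrays were tested. The test was limma 3.58.1 in R 4.3.3, fitted over all 18 arrays with 1 mean per group and an intensity trend, two-sided, with Benjamini-Hochberg adjustment over all genes and a threshold of 0.05; 3 contrasts (24 h against 10 h, its difference from the step before, and 4 h against baseline) carry the report, and values against baseline are given as levels. Adjusted p-values are limma's unless another test is named, and the error of a log2 change is limma's standard error. The 40 gene lists (868 genes tested) and 10 marker lists, and the 6 arrays themselves, were chosen with earlier results of these data known, so lists are given as counts and medians, without a test of their own. Named genes are the 15 largest rises and falls, up to 4 called members of each list, all clock genes, 5 treatment checks (Nr3c1, Fkbp5, Tsc22d3, Per1 and Dusp1), and the 4 leading genes of each class of the 4 h comparison and of the step difference; exceptions are said to be so, except the called list members Dnajc3, Fabp5, Lpl, P2rx4, Sod1, Sod2 and Clec4d, which complete a count. The calls of members named only to complete a count were not followed singly through the alternatives. The background level averages, over arrays, the 95th percentile of the values of 43 control probe sets. On simulated data for this comparison, with 50 genes changed by each size among 13190, 20% of changes of 0.25 log2 were recovered, 66% of 0.5, 98% of 1 and 100% of 2. Of 147 calls there, 5 were false. The simulated noise was normal and independent between arrays, without the structure that real arrays of the same number share, so these rates may not hold for the real arrays. Alternatives covered the replicate block, the arrays in the fit, the trend, the choice of probe set, the filter, the scaling, the stepped run and leaving out each array.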

Additional observations from a re-analysis of the deposited data

How the results depend on the processing

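Of 91 named genes called between 10 h and 24 h, 36 kept the call under all alternatives that tested them, 0 changed sign, and 327 of 1728 combinations of gene and alternative lost it; the cause was not tested. The counts of genes changed, higher and lower (285, 131 and 154) became 547, 283 and 264 with a replicate block over 18 arrays, 471, 224 and 247 with a replicate block over the 6 arrays alone, 176, 77 and 99 with the 6 arrays alone, 124, 49 and 75 without the intensity trend, and 172, 78 and 94 with the probe set of largest variance. Leaving out 1 array gave 145 to 258, 57 to 111 and 88 to 147, with fewer samples in the fit. The step difference, 199 genes, became 408 with the replicate block, 82 without the trend, 109 with the probe set of largest variance, 130 with the mean of all probe sets and 102 to 184 with 1 array left out; the 6 arrays alone cannot give it. The 4 h count of 992 ranged from 952 to 1076 with 1 array left out, and the shares of falls and rises that had gone the other way at 4 h from 34.69% to 43.18% and from 15.79% to 21.28%; with the replicate block the share of rises was 28.62%. Among genes whose call outlasted every left-out array, Adam17, C1qc, Cd36, Chil3, Ctsh, Lgmn and Mt1 lost it without the trend, at adjusted p of 0.0511 (Mt1) to 0.0793 (Lgmn), Entpd1 (0.0996), Mt1 (0.592) and Mxd4 (0.704) with the probe set of largest variance, and Mt1 (0.0608), Mxd4 (0.142) and Vcan (0.12) with the mean of probe sets. All 285 genes were called the same way under the 18-array block and 118 of them without the trend, and with the probe set of largest variance 8 of the 284 tested, and with the mean of probe sets 3 of 283, had the other sign. Among named genes, signs turned in uncalled ones: Nr3c1 read 0.43 with the probe set of largest variance, 0.0775 with the mean of probe sets and -0.15 to 0.0247 with 1 array left out (0.0247 without 10 h replicate 1); Bhlhe41 0.0478 with the mean and -0.23 to 0.19 with 1 array left out (0.19 without 10 h replicate 1); Rora 0.0465 with the mean; and Hlf -0.0271 to 0.17 with 1 array left out (below 0 without 24 h replicate 2 or 10 h replicate 1). Same-numbered 24 h and 10 h arrays deviated together with correlations of 0.081 to 0.153, against -0.136 to -0.0075 for arrays of different number. Of the 18 arrays, 18 correlated best with an array of their own number. Over all pairs of groups the same-number values were 0.0236 to 0.290, and those of different number -0.227 to 0.0760. The main fit did not take the numbers as pairs. It therefore leaves out a structure shared by arrays of the same number, and the counts with a replicate block, given above, include it. Fits with 15 treated arrays in the spread were added after seeing the data and called 308 genes.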

Other observations

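Besides the named genes, 16102 probe sets had no symbol or several, and 9937 of them reached the 40th percentile on at least 3 arrays. Tested in the same way, 33 were higher and 31 lower at 24 h than at 10 h at a limma adjusted p under 0.05, and their genes are not named here.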
